A study of Homo sapiens with 8 samples.

Results

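The genes described here encode 10 factors that cut and polyadenylate the 3′ ends of pre-mRNAs: CPSF1, CPSF2, CPSF3, CPSF4, CPSF6, NUDT21, CSTF1, CSTF2, CSTF3 and PCF11. They were chosen by name, as the listed CPSF and CSTF genes and their partners, with earlier results of these data known. All 10, of the 60624 Ensembl genes in the count tables, passed the filter on low counts that left 18661 genes for testing. The cells were A549, an established human lung adenocarcinoma line, either untreated, treated with indisulam (a molecular glue that directs the splicing factor RBM39 to degradation), treated with SPHINX31 (an inhibitor of the kinase SRPK1, which phosphorylates SR splicing factors), or treated with the combination. Each of the 4 groups had 2 technical replicates of polyA+ stranded RNA, so the p-values below measure the spread between these libraries and not between independent treatments. The sources disagree on the treatment: the sample labels give 2 µM indisulam for 18 h, in the same words for all 8 libraries, whereas the methods give 0.5 µM indisulam and 5 µM SPHINX31 for 24 h. No vehicle is named for the untreated cells, and all values come from a single cell line.

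Most human mRNA ends are made by a large complex that reads sequence signals on both sides of the cut. In the CPSF complex, CPSF4 and WDR33 bind the hexamer AAUAAA, CPSF3 is the endonuclease, CPSF2 is its catalytically inactive partner, and CPSF1 is the scaffold. The CstF complex binds U-rich or GU-rich RNA downstream of the cut through CSTF2 (CstF64), which sits on the dimeric scaffold CSTF3 (CstF77) together with CSTF1 (CstF50). Cleavage factor Im, made of NUDT21 with CPSF6 or CPSF7, binds UGUA upstream, and cleavage factor IIm, made of PCF11 and CLP1, links cleavage to termination of transcription. The levels of CSTF2, of cleavage factor Im and of PCF11 are known to influence which of several poly(A) sites a gene uses.

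The signal that CPSF reads is shown here as it stands in the members' own transcripts, for the 8 that differed between the combination and untreated cells. Each line is the DNA-letter sequence, 5′ to 3′, of the last 30 bases of the GENCODE canonical transcript, with the hexamer in capitals.
CSTF2: aagatgaAATAAAaacagaaatcaaatgaa
CSTF3: tcctttaaaaAATAAAaggattcagaaaca
CSTF1: gatttctgaAATAAActttatatacaatga
CPSF2: caattgtgaAATAAAcagattctgaaggtc
CPSF3: aaAATAAAatgcattcgtttctctggggga
CPSF4: ttatgaaatggATTAAAgcttgttttttaa
NUDT21: tcatttcAATAAAaaatatttgaaagagaa
PCF11: atacatgtAATAAAtagaatgatgaagaaa
The CSTF2 window lies on the plus strand at chrX:100841491-100841520 of GRCh38. The canonical hexamer AATAAA was present in this window in 8 of the 10 members and the common variant ATTAAA in 1, CPSF4. CPSF1, which is not among those shown, had neither. Among 20046 canonical transcripts of protein-coding genes, AATAAA was found in 56.6% and ATTAAA in 15.2% of windows of the same length. The letters TGTA, which cleavage factor Im reads as UGUA, occurred in the last 100 bases of 6 of the 10 members and of 51.8% of canonical transcripts, and CSTF2, CSTF1, CPSF2 and CPSF4 had none there.

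Promoter sequence is given for CSTF2, the member with the largest decrease, and for CPSF3, which was higher in both groups with indisulam, because both hold the ETS-family core CCGGAAG. These are the 250 bases before the RefSeq start on GRCh38.p14, 5′ to 3′ on the plus strand, with that core in capitals on either strand.
CSTF2, chrX:100820141-100820390: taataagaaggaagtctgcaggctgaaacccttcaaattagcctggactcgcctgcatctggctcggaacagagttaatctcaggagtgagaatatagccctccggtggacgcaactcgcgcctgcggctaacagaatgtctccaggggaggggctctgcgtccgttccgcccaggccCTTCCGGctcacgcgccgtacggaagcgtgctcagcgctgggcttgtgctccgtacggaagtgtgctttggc
CPSF3, chr2:9423404-9423653: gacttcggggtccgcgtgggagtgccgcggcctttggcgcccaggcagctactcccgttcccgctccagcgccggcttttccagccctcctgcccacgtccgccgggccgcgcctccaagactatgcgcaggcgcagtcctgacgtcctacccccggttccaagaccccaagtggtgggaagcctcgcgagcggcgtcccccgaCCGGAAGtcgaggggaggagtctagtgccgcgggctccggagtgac
The RefSeq table matched 9 of the 10 members, and CPSF1 was not matched. Where a gene had several windows, the one with the lowest start coordinate was counted, for members and for all promoters alike. The motifs were chosen after these sequences had been seen, so the shares that follow are a description and no measure of enrichment. The promoters set beside them are those of all RefSeq genes and were not limited to genes expressed in these cells. Searched on both strands, CCGGAAG was found upstream of 4 of these 9 (CSTF2, CPSF3, NUDT21 and CSTF3), against 8.79% of 27305 promoters. The GC box GGGCGG was found in 5 of 9 against 41.6%, CCAAT in 7 of 9 against 32.9%, and the CRE core TGACG in 5 of 9 against 21.3%. The windows not counted, of CPSF4 and CSTF1, add a GC box for CPSF4 and the CRE core for CSTF1. Binding of any factor to the CCGGAAG heptamer was not measured. Its part in the RNA levels of the 4 members that hold it was not tested.

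Library depth was between 51727369 and 63186989 counts on genes, and 83.0% to 86.0% of the recorded reads fell on genes. The members had between 1816 (CPSF4) and 11587 (NUDT21) counts in a library, and the standard error of their log2 fold changes between 2 groups was 0.0505 to 0.0729. The 7 epithelial and A549 marker genes examined stood between 1158 and 7059 CPM (counts scaled by the TMM-adjusted library size). Of 10 markers of other cell types, 8 were below 1 CPM in every library, while PECAM1 was listed at 1.45 to 2.36 CPM and CD14 at 6.83 to 9.76 CPM. Their summed level was 9.73 to 12.4 CPM in untreated, 8.82 to 11.7 in indisulam, 10.1 to 10.3 in SPHINX31 and 8.85 to 10.1 in combination libraries, and its part in the results was not tested. CDKN2A, which is deleted in A549, was nevertheless listed at 2.65 to 3.64 CPM. RBM39 RNA, which does not report on degradation of the protein, stood at 155 ± 2.04 CPM in untreated and 361 ± 0.648 in indisulam libraries (SD, n = 2 each). It was 175 ± 12.8 CPM in SPHINX31 and 382 ± 13.3 in combination libraries (SD, n = 2 each). SRPK1 RNA was 129 ± 1.43 CPM in untreated, 102 ± 2.17 in indisulam, 125 ± 9.24 in SPHINX31 and 109 ± 0.427 in combination libraries (SD, n = 2 each).

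Before any comparison, the members can be ordered by level per length, as CPM per kb of the union of annotated exons. In untreated cells NUDT21 was highest at 28.6 ± 0.269 CPM per kb, followed by CPSF3 at 26.5 ± 0.483 and CSTF2 at 25.8 ± 0.207 (SD, n = 2 each). CPSF1 (16.8 ± 0.329), CPSF6 (14.8 ± 0.384) and CSTF3 (10.8 ± 0.158) were intermediate (CPM per kb, SD, n = 2 each). CPSF2 (9.16 ± 0.285), CPSF4 (8.97 ± 0.310), CSTF1 (8.70 ± 0.0603) and PCF11 (6.70 ± 0.266) were lowest (CPM per kb, SD, n = 2 each). CPSF2 and CPSF4, and CPSF4 and CSTF1, differed by less than the SD of CPSF4, so their order is not resolved. On this scale the RNA of the endonuclease CPSF3 stood above that of the scaffold CPSF1, that of CSTF2 above CSTF3 and CSTF1, and that of NUDT21 above CPSF6. With the longest transcript as the length in place of the exon union, CPSF4 stood at 20.9 CPM per kb and in the fifth place, with CSTF2 still in the third. In the combination group CSTF2 stood at 13.4 ± 0.230 CPM per kb (SD, n = 2) and in the fifth place.

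**Figure D1:**
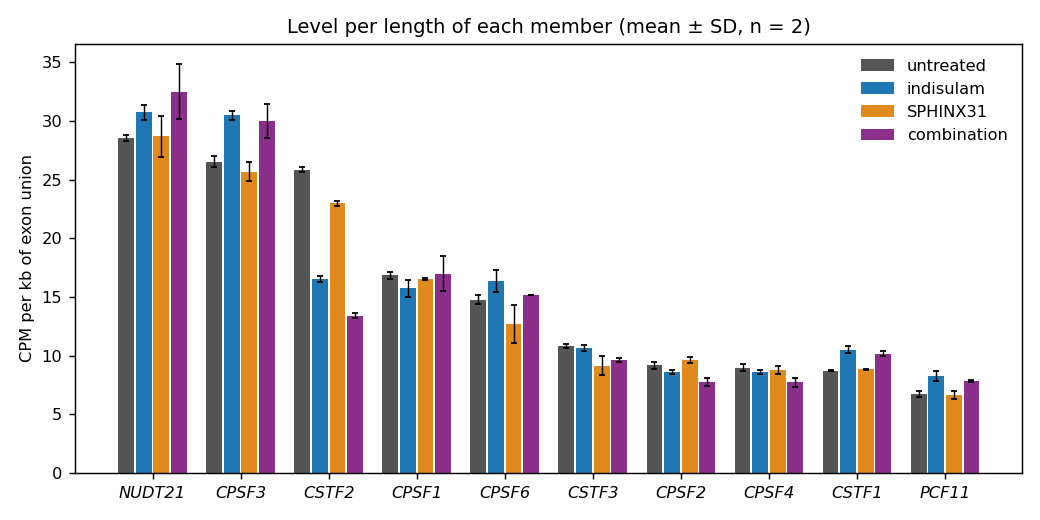
Level per length of the 10 factors, in CPM per kb of exon union, as mean bars with SD (n = 2 libraries) for untreated, indisulam, SPHINX31 and combination cells, ordered by the untreated level. CSTF2 goes from 25.8 CPM per kb in untreated to 13.4 in combination cells, and the group means of every other member lie within 1.29 times of each other.

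The first comparison was of indisulam with untreated cells. Of the 10 members, 4 differed: CSTF2 was lower, and CPSF3, CSTF1 and PCF11 were higher. The test was the quasi-likelihood F-test of edgeR, and a gene passed below 0.05 after Benjamini-Hochberg correction across all genes tested. This is to be read against 43.7% of all tested genes that passed in the same comparison, 20.1% higher and 23.5% lower. The median absolute log2 fold change was 0.13 over the members and 0.26 over all tested genes. The tested genes include some with far fewer counts than any member, and these medians, here and below, were not matched for count level.

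CSTF2, the RNA-binding subunit of CstF, had 71.2 and 70.4 CPM in the untreated libraries, 45.7 and 44.8 with indisulam, 62.6 and 63.5 with SPHINX31, and 36.3 and 37.2 with the combination. The libraries of the 4 groups did not overlap and stood in the order untreated, SPHINX31, indisulam, combination, with replicates at most 2.43% apart. The share of all tested genes whose libraries separate between groups was not counted. Such separation is therefore only a description, for this gene and those below. The log2 fold change with indisulam was -0.65 (SE 0.0513, adjusted p = 5.30e-07, edgeR), and it lay between -0.66 and -0.62 when any library was left out. In bulk RNA, fewer cells with the transcript and less of it per cell cannot be told apart. In absolute size this change stood at percentile 80.4 of all tested genes. CSTF2 (ENSG00000101811) lies on chromosome X of GRCh38, from 100820391 to 100841520 on the plus strand, has 14 exons in its canonical transcript, and shares no exonic base with another annotated gene.

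With indisulam alone, neither partner of CSTF2 within CstF was lower by the test. CSTF1, the WD-repeat subunit (chromosome 20, 56392371 to 56406362, plus strand), had 41.5 and 41.9 CPM in untreated, 49.4 and 51.3 in indisulam, 42.5 and 42.2 in SPHINX31, and 47.9 and 49.6 in combination libraries. All 4 libraries with indisulam were above all 4 without it, and the log2 fold change with indisulam alone was 0.27 (SE 0.0536, adjusted p = 0.00114, edgeR). CSTF3, the scaffold (chromosome 11, 33077188 to 33162371, minus strand), had 48.3 and 49.3 CPM in untreated and 49.0 and 47.4 in indisulam libraries, with a log2 fold change of -0.02 (95% confidence interval -0.16 to 0.12). The ratio of CSTF2 to CSTF3, each per kb, was 2.43 and 2.35 in untreated and 1.54 and 1.56 in indisulam libraries. CSTF3 shares 392 exonic bases with TCP11L1 and 263 with LINC00294 on the opposite strand, and the strand setting of the counting is not given in the sources used here.

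**Figure D2:**
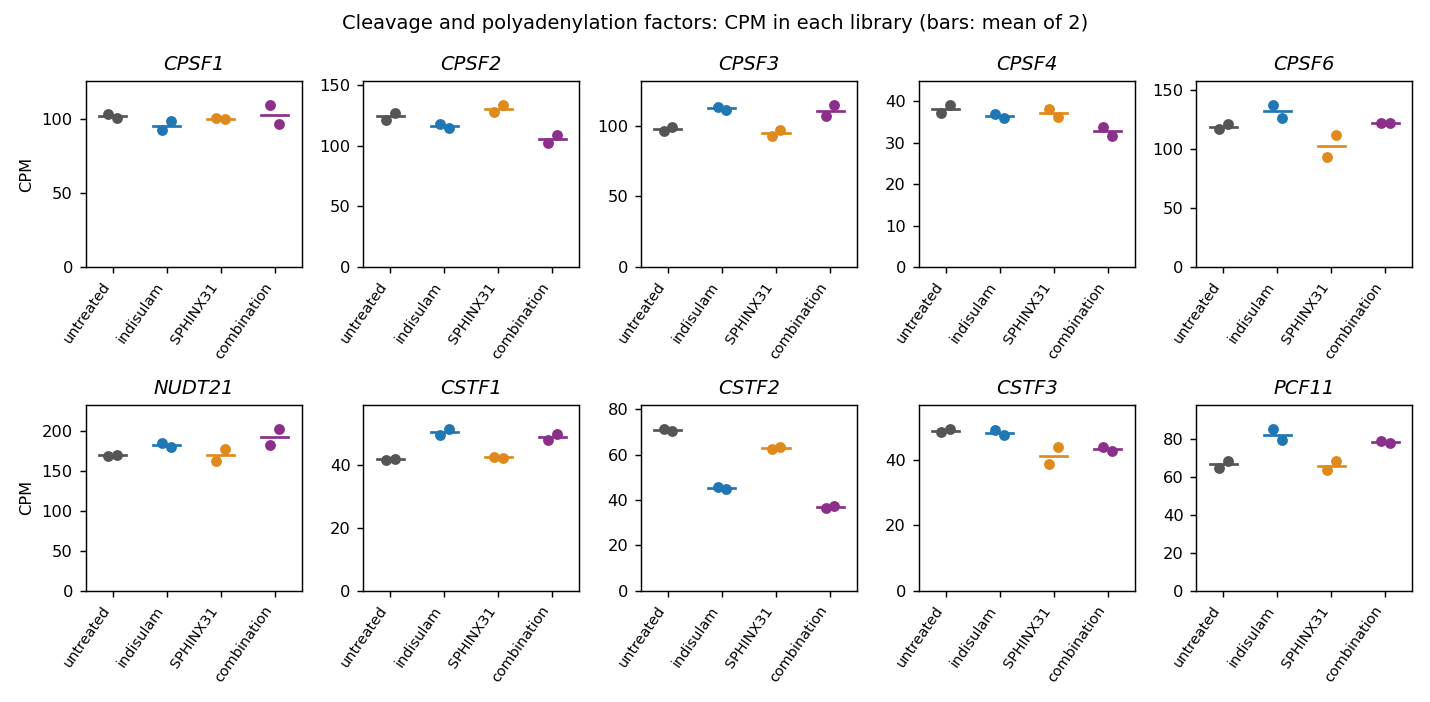
CPM of each of the 10 factors (y axis, from 0) in every library of the 4 groups (x axis), with a bar at the mean of 2 libraries. CSTF2 separates all 4 groups, from 71.2 CPM in an untreated library to 36.3 in a combination library, and the largest gap between replicates is that of CPSF6 with SPHINX31, 93.0 against 112 CPM.

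CSTF2T, the paralog of CSTF2 on chromosome 10 that can take its place in CstF, was measured beside it. It had 47.7 and 49.4 CPM in untreated and 55.3 and 53.0 in indisulam libraries (log2 fold change 0.16, SE 0.0535, adjusted p = 0.0293, edgeR). Per kb, CSTF2 made up 69.1% and 68.1% of the sum of the pair in untreated cells, 55.3% and 55.9% with indisulam, 67.9% and 67.7% with SPHINX31, and 51.1% and 51.8% with the combination. The share of CSTF2 in the pair was thus lower in every library with indisulam than in any without. Reads that match both paralogs could be lost or misplaced by the counting, and how such reads were treated is not given in the sources used here. The CSTF2T call was lost with genes of at least 1 count kept (adjusted p = 0.0662, edgeR) and without untreated replicate 1 (0.191), untreated replicate 2 (0.0765) or indisulam replicate 1 (0.184).

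**Figure D3:**
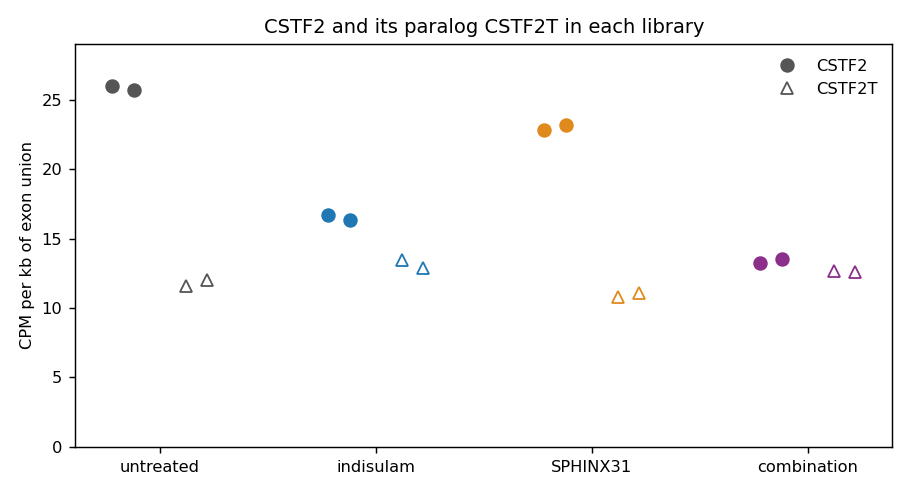
CSTF2 (filled circles) and its paralog CSTF2T (open triangles) in CPM per kb of exon union (y axis, from 0) in both libraries of each group (x axis). CSTF2 comes down towards CSTF2T in the 4 libraries with indisulam, where it makes up 51.1% to 55.9% of the pair.

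In the CPSF complex, CPSF3 was the member that passed with indisulam. CPSF3 (chromosome 2, 9423651 to 9473101, plus strand) had 96.5 and 99.0 CPM in untreated, 113 and 111 in indisulam, 92.5 and 96.9 in SPHINX31, and 107 and 114 in combination libraries. Its 4 libraries with indisulam lay above the 4 without, with a log2 fold change of 0.20 for indisulam alone (SE 0.0526, adjusted p = 0.00722, edgeR), and the call was lost without untreated replicate 1 (0.18, adjusted p = 0.0695). CPSF1, CPSF2 and CPSF4 had log2 fold changes of -0.10, -0.09 and -0.06 with indisulam, and their 95% confidence intervals included 0 and reached -0.23, -0.21 and -0.19. A decrease of up to that size lies within the error of these libraries.

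PCF11, the scaffold of cleavage factor IIm (chromosome 11, 83156988 to 83187451, plus strand), had the largest increase among the members. It had 64.8 and 68.6 CPM in untreated, 85.2 and 79.3 in indisulam, 63.5 and 68.3 in SPHINX31, and 78.9 and 77.7 in combination libraries. Again the 4 libraries with indisulam lay above the 4 without, and the log2 fold change with indisulam was 0.30 (SE 0.0581, adjusted p = 0.000930, edgeR). PCF11 shares 1516 exonic bases with the antisense RNA PCF11-AS1, which itself had 10 to 32 counts per library against at least 3441 for PCF11. CLP1, the partner of PCF11, went from 16.2 ± 0.289 CPM in untreated to 19.7 ± 1.03 in indisulam libraries (SD, n = 2 each; log2 fold change 0.28, adjusted p = 0.00701, edgeR), a call lost without untreated replicate 2 (adjusted p = 0.0561) or indisulam replicate 2 (0.0539).

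For cleavage factor Im, neither NUDT21 nor CPSF6 passed with indisulam. NUDT21 (chromosome 16, 56429133 to 56452199, minus strand) had 168 and 171 CPM in untreated and 185 and 180 in indisulam libraries, with a log2 fold change of 0.11 (95% confidence interval -0.02 to 0.23). It shares 2724 exonic bases with another protein-coding gene model on the same strand that is not among the counted genes. CPSF6 (chromosome 12, 69239569 to 69274358, plus strand) had 117 and 121 CPM in untreated and 137 and 126 in indisulam libraries, with a log2 fold change of 0.15 (95% confidence interval -0.01 to 0.30, adjusted p = 0.115, edgeR). CPSF6 passed with only the libraries of the groups compared (adjusted p = 0.0377, edgeR), with genes of at least 1 count kept (0.0471), and without SPHINX31 replicate 1 (0.0274) or 2 (0.0276). CPSF7, the alternative to CPSF6 in this factor, rose from 127 ± 2.57 to 152 ± 7.05 CPM (SD, n = 2 each; log2 fold change 0.26, adjusted p = 0.00139, edgeR).

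With SPHINX31 against untreated cells, 1 of the 10 members passed, against 8.61% of all tested genes (4.94% higher and 3.67% lower). This was CSTF3, which had 38.6 and 43.7 CPM with SPHINX31 against 48.3 and 49.3 in untreated cells, a log2 difference of -0.24 (SE 0.0636, adjusted p = 0.0301, edgeR). The median absolute log2 fold change over the members was 0.04, against 0.14 over all tested genes. CSTF2 did not pass, at -0.17 (SE 0.0505, adjusted p = 0.0563, edgeR). Neither did CPSF6, at -0.22 (SE 0.0729, adjusted p = 0.0857, edgeR), with 93.0 and 112 CPM in the SPHINX31 libraries. The CSTF3 call was lost with scaling by total counts (adjusted p = 0.0520, edgeR) and without untreated replicate 1 (0.136), untreated replicate 2 (0.183) or SPHINX31 replicate 1 (0.192). With a correction for GC content, CSTF2 (-0.18, adjusted p = 0.00885, edgeR) and CPSF6 (-0.22, adjusted p = 0.0119) passed as well, and CPSF6 also passed without SPHINX31 replicate 2 (-0.36, adjusted p = 0.0062). Without SPHINX31 replicate 1 CPSF6 was at -0.09 (adjusted p = 0.457, edgeR), so its value rests on which of these libraries is kept.

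With the combination against untreated cells, 8 of the 10 members passed, against 50% of all tested genes (23.8% higher and 26.3% lower). CSTF2, CPSF2, CPSF4 and CSTF3 were lower, and CPSF3, NUDT21, CSTF1 and PCF11 were higher. The median absolute log2 fold change was 0.20 over the members and 0.30 over all tested genes. Apart from CSTF2, the members lay between -0.23 (CPSF2) and 0.23 (PCF11). This comparison uses the same untreated libraries as the preceding ones.

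CSTF2 had a log2 fold change of -0.95 with the combination (SE 0.0518, adjusted p = 1.17e-08, edgeR), a level 1.93 times lower than in untreated cells and at percentile 87.4 of all tested genes in absolute size. Its partner CSTF1 was at 0.23 (SE 0.0536, adjusted p = 0.00336, edgeR). CSTF3 was at -0.17 (SE 0.0634, adjusted p = 0.0378, edgeR), with 43.9 and 42.8 CPM, and no longer passed with scaling by total counts (-0.12), with DESeq2 (adjusted p = 0.0660) or with genes of at least 1 count kept (adjusted p = 0.0503). Per kb, CSTF2 stood at 1.36 and 1.43 times CSTF3, and at 1.32 and 1.31 times CSTF1, in the combination libraries. In untreated libraries the ratio to CSTF1 was 2.998 and 2.936.

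CPSF2 (chromosome 14, 92121969 to 92172145, plus strand) had 121 and 127 CPM in untreated, 118 and 115 in indisulam, 128 and 133 in SPHINX31, and 102 and 109 in combination libraries. Both combination libraries were below the other 6, and the log2 fold change against untreated cells was -0.23 (SE 0.0526, adjusted p = 0.00233, edgeR). CPSF4 (chromosome 7, 99438922 to 99457373, plus strand) had 37.2 and 39.1 CPM in untreated, 37.1 and 36.1 in indisulam, 38.3 and 36.2 in SPHINX31, and 33.8 and 31.7 in combination libraries, with a log2 fold change of -0.22 for the combination (SE 0.0609, adjusted p = 0.00879, edgeR). For this gene too, both combination libraries were the lowest of all 8. CPSF3 was at 0.18 (adjusted p = 0.0121) and NUDT21, with 183 and 202 CPM, at 0.19 (adjusted p = 0.0176, edgeR). PCF11 was at 0.23 (SE 0.0581, adjusted p = 0.00472, edgeR). Its partner CLP1 was at 0.18 with the combination and did not pass. CLP1 did pass with scaling by total counts (adjusted p = 0.0191, edgeR) and with only the groups compared (0.0354).

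CPSF1 (chromosome 8, 144393229 to 144409335, minus strand) and CPSF6 were the 2 members that did not pass. CPSF1 had 103 and 101 CPM in untreated, 92.2 and 98.5 in indisulam, 101 and 99.7 in SPHINX31, and 109 and 96.6 in combination libraries, with a log2 fold change of 0.01 for the combination (95% confidence interval -0.12 to 0.14). CPSF6 had 122 and 122 CPM in the combination libraries, with a log2 fold change of 0.04 (95% confidence interval -0.12 to 0.19). Fits without untreated replicate 1, untreated replicate 2 or combination replicate 2 called fewer members, and fewer of all tested genes as well. CPSF3, CPSF4, NUDT21, CSTF3 and PCF11 lost the call in at least 1 of these fits, while CSTF2, CSTF1 and CPSF2 kept it in each.

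**Figure D4:**
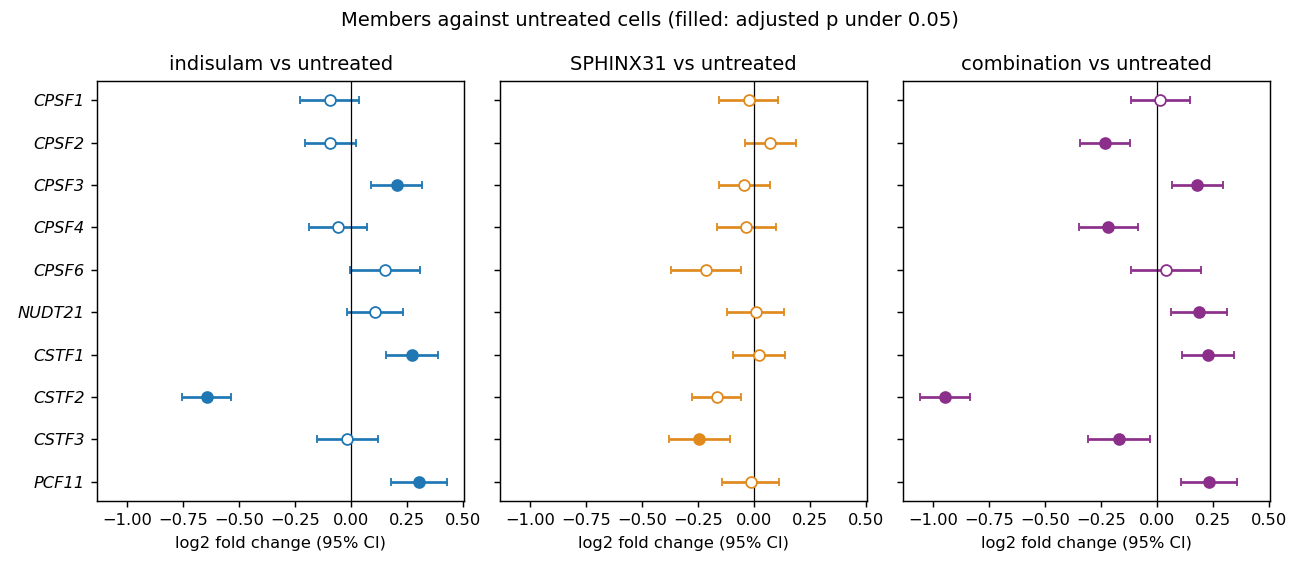
Log2 fold change with its 95% confidence interval (x axis) for the 10 factors (y axis) in indisulam, SPHINX31 and combination cells against untreated cells, with filled points at an adjusted p-value under 0.05. CSTF2 is at -0.65, -0.17 and -0.95, and the other members stay between -0.24 and 0.30.

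When the combination was compared with indisulam alone, 1 of the 10 members passed, against 7.5% of all tested genes (3.17% higher and 4.32% lower). This was again CSTF2, lower with the combination (log2 fold change -0.30, SE 0.0525, adjusted p = 0.00421, edgeR), which passed without each library in turn (-0.32 to -0.28). CPSF2 (-0.14, adjusted p = 0.132), CPSF4 (-0.16, adjusted p = 0.140) and CSTF3 (-0.15, adjusted p = 0.175, edgeR) did not pass. Against SPHINX31 alone, 8 of the 10 members passed, with 49.9% of all tested genes passing (23.4% higher and 26.5% lower). CPSF3, CPSF6, NUDT21, CSTF1 and PCF11 were higher by 0.18 (NUDT21) to 0.25 (CPSF6), and CPSF2 (-0.31), CPSF4 (-0.18) and CSTF2 (-0.78, adjusted p = 7.32e-08, edgeR) were lower. Without SPHINX31 replicate 1 or without combination replicate 2, CPSF4, CPSF6 and NUDT21 no longer passed, and fewer of all tested genes did.

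Whether the combination differed from the sum of the single treatments was tested with the interaction term. No member passed, and neither did any of the tested genes (0%, edgeR), while at an unadjusted p-value under 0.05 it was 1 member and 8.49% of all tested genes. The count over all genes depended on the method. DESeq2 called 2 higher and 14 lower, GC correction 1 and 8, and keeping genes of at least 1 count 32 and 62. RLE size factors, total counts, the stricter filter and the replicate block called none. For CSTF2 the single changes added up to -0.81 against -0.95 for the combination, an interaction of -0.13 (95% confidence interval -0.29 to 0.02, adjusted p = 0.654). The member with an unadjusted p-value under 0.05 was CPSF2, whose single changes added up to -0.02 against -0.23 for the combination (interaction -0.21, 95% confidence interval -0.37 to -0.05, unadjusted p = 0.0135, adjusted p = 0.489, edgeR).

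The other genes of the pathway were followed in lists drawn up by function. The lists, too, were chosen with earlier results of these data known, so their counts beside the shares of all tested genes are a description. Among 13 other core cleavage and polyadenylation factors, 5 were higher and 2 lower with indisulam, against 43.7% of all tested genes passing, and 3 were higher and 3 lower with the combination, against 50%. None passed with SPHINX31, against 8.61% of all tested genes (edgeR, 4 at an unadjusted p-value under 0.05, against 24.1%). With GC correction PAPOLA (adjusted p = 0.00710, edgeR) and RBBP6 (0.0294) did pass with SPHINX31, both lower, as they did without SPHINX31 replicate 2 (0.0298 and 0.0289). The largest of these changes was in PAPOLA, the canonical nuclear poly(A) polymerase, with 354 and 362 CPM in untreated, 185 and 182 in indisulam, 310 and 336 in SPHINX31, and 164 and 170 in combination libraries. Its log2 fold change was -0.97 with indisulam (SE 0.0513, adjusted p = 1.56e-08) and -1.10 with the combination (SE 0.0515, adjusted p = 3.05e-09, edgeR). The level of this gene, like that of CSTF2, was lower in every library with indisulam than in any without. RBBP6, which activates cleavage, was at -0.20 with indisulam (adjusted p = 0.0349) and -0.40 with the combination (adjusted p = 0.000358, edgeR). CPSF7 was at 0.25 with the combination (adjusted p = 0.00150, edgeR), the phosphatase subunit PPP1CA at -0.19 (adjusted p = 0.00810), and CSTF2T at 0.10 without passing. Fewer of this list were called with indisulam without untreated replicate 1, untreated replicate 2 or indisulam replicate 2. The same was so with the combination without untreated replicate 1. In each of these fits fewer of all tested genes passed as well. RBBP6 with indisulam was among the calls lost (adjusted p = 0.0521 with DESeq2, and from edgeR 0.0507 with the replicate block and up to 0.256 without indisulam replicate 2), as was PPP1CA without untreated replicate 1 (0.0837) or combination replicate 1 (0.0615).

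Among 20 factors of poly(A) site choice and transcription termination, 9 were higher and 1 lower with indisulam, against 20.1% and 23.5% of all tested genes. With the combination 9 were again higher and 1 lower, against 23.8% and 26.3%. None passed with SPHINX31, against 8.61% (edgeR, 3 at an unadjusted p-value under 0.05, against 24.1%), although HNRNPC did with GC correction (-0.15, adjusted p = 0.0173, edgeR). NCBP1, the large subunit of the nuclear cap-binding complex, was the one lower, with 63.0 and 64.3 CPM in untreated, 38.8 and 38.3 in indisulam, 58.4 and 63.1 in SPHINX31, and 33.1 and 31.8 in combination libraries. Its log2 fold change was -0.72 with indisulam (adjusted p = 5.06e-07) and -0.97 with the combination (adjusted p = 2.43e-08, edgeR). NCBP2, the small subunit, moved the other way, at 0.35 (adjusted p = 8.34e-05) and 0.36 (adjusted p = 4.79e-05, edgeR). HNRNPC, which binds U-rich RNA, was at 0.54 with indisulam and 0.45 with the combination, and the SR protein SRSF3 at 0.45 and 0.41. As in CstF, 2 subunits of 1 complex differed in direction.

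**Figure D5:**
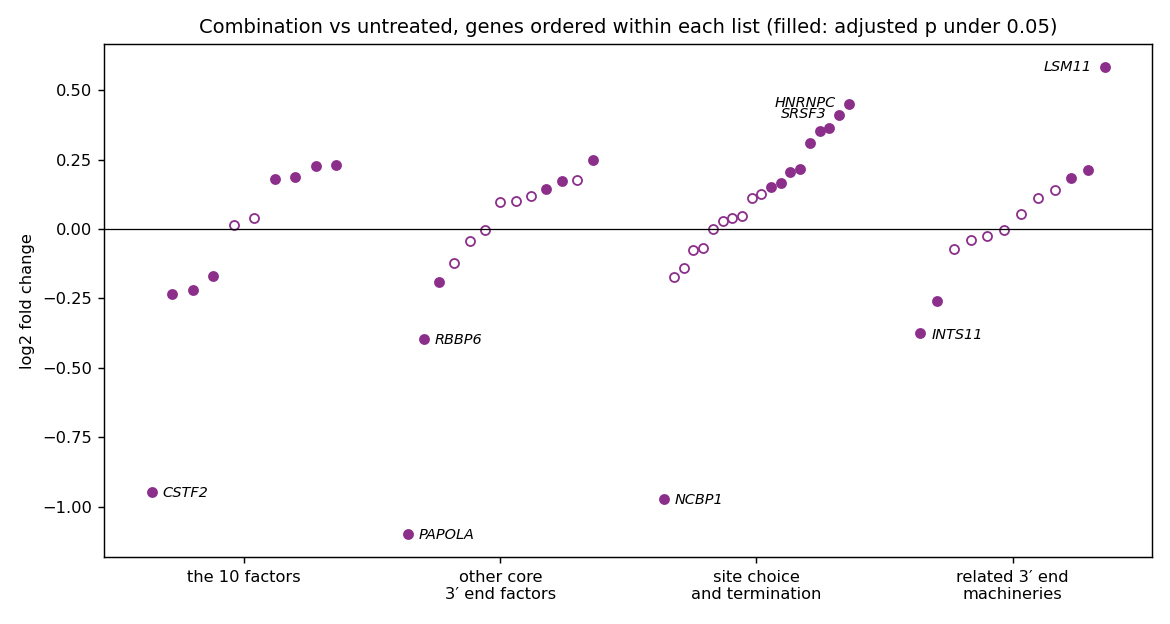
Log2 fold change of the combination against untreated cells (y axis) for every gene of the 10 factors and of the lists of 13, 20 and 12 related genes (x axis, ordered by value within a list), with filled points at an adjusted p-value under 0.05. CSTF2 (-0.95), PAPOLA (-1.10) and NCBP1 (-0.97) stand below all other genes plotted.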

How the data were processed

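The authors deposited, for each of 8 libraries, raw counts of reads per Ensembl gene together with the reads left unassigned. Per the labels, the build was GRCh38 and the tools were HISAT2 2.2.1 and HTSeq, whose version and strand setting are not given in the sources used here. Gene symbols, positions and exon lengths came from GENCODE release 44 on GRCh38, promoter sequences from RefSeq (GRCh38.p14). Counts were filtered with filterByExpr (18661 genes left), scaled by TMM (factors 0.978 to 1.02) and compared over all 8 libraries with edgeR 4.0.16 in R 4.3.3 (quasi-likelihood test, Benjamini-Hochberg adjustment, threshold 0.05). The common biological coefficient of variation, here between technical replicates, was 0.0491. Replicates differed by more than counting noise and were kept as separate libraries. The procedure was tested on simulated data.

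Samples were grouped by their treatment label. Alternatives were RLE size factors, total counts, DESeq2 1.42.0, looser and stricter filters, only the groups compared, a replicate block, GC correction, leaving out each library, and an adjusted p-value under 0.1. The members and lists were chosen with earlier results of these data known. All members were named. From each other list, up to 4 genes with the largest change among those that passed against untreated cells could be named, with CSTF2T and CPSF7 in any case. The genes most like 2 members were taken by Pearson's r. The promoter motifs were chosen after the sequences had been seen.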

Additional observations from a re-analysis of the deposited data

Results flagged for a closer look

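The share of recorded reads that fell outside annotated features, which the gene comparisons do not use, was higher with indisulam than in the untreated libraries. It was 5.48% and 4.49% with indisulam and 5.87% and 4.87% with the combination, against 3.94% and 4.34% in untreated and 3.67% and 3.93% in SPHINX31 libraries. The mean over the 4 libraries with indisulam exceeded that over the 4 without by 1.21 percentage points (exact two-sided permutation test, p = 0.0286, n = 4 against 4, the smallest value this test can give, higher in 4 of 4 libraries). The test permuted libraries that were technical replicates, so its p-value does not cover the spread between independent treatments. The share was flagged because every library with indisulam exceeded both untreated libraries. The test partly reuses that separation, so its p-value is a description. The lowest library with indisulam (4.49%) stood close to the highest without it (4.34%). Such reads include, among others, those from introns and from beyond annotated 3′ ends, which these counts do not separate, so their place relative to poly(A) sites was not analysed here. The part of this shift in the members' counts was not tested.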

How the results depend on the processing

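The number of members called with SPHINX31 against untreated cells, 1 as reported, was 0 with total counts and 2 with genes of at least 1 count kept. It was 3 with GC correction, 3 with GC correction and a replicate block, and 3 at an adjusted p-value under 0.1. It also varied on leaving out 1 library. Calls over all 18661 tested genes moved too, from 921 higher and 685 lower as reported to 1341 and 515 with total counts. They were 1321 and 1358 with GC correction, and 1160 and 1182 with GC correction and a replicate block. With genes of at least 1 count kept they were 1151 and 987 of 34831 genes. On leaving out 1 library the count was 4 to 8 for the combination against untreated cells and 5 to 9 against SPHINX31, and a lone library was then assumed to vary like the other groups. Under the other alternatives these 2 counts of members stayed within 1.5 times those reported, and the count for indisulam against untreated cells did so under every alternative. The count for the combination against indisulam remained 1, and that for the interaction remained 0, DESeq2 included. A replicate block gave 4, 1, 8, 1, 8 and 0 members in the order of the report and changed no call of a member or other gene named against untreated cells except that of RBBP6 with indisulam (adjusted p = 0.0507, edgeR). The replicate numbers are not stated to pair libraries, and the deviations of same-numbered libraries correlated between -0.566 and 0.452 over pairs of groups. No member reversed a direction that was called. CSTF2 kept its call against untreated cells under all alternatives with indisulam and with the combination. Counting outside reads against uniquely aligned reads gave a difference of 1.30 percentage points. The cause of these shifts was not tested. With at least 51727369 counts per library, depth limited the members little, and the design of technical duplicates limits what the p-values cover.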

Other observations

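Outside the canonical machinery, 12 genes of other 3′ end pathways (Integrator, histone pre-mRNA processing) were examined. With indisulam 1 was higher and 1 lower, against 43.7% of all tested genes passing, with SPHINX31 1 was higher, against 8.61%, and with the combination 3 were higher and 2 lower, against 50% (edgeR, adjusted p under 0.05). LSM11, a U7 snRNP protein of histone mRNA processing, went from 10.7 ± 0.00375 CPM in untreated to 14.0 ± 1.10 with indisulam and 16.0 ± 0.0773 with the combination (SD, n = 2 each), log2 fold changes of 0.39 (adjusted p = 0.00246) and 0.58 (adjusted p = 8.23e-05, edgeR). INTS11, the endonuclease of Integrator and a homolog of CPSF3, was at -0.31 (adjusted p = 0.000784) and -0.38 (adjusted p = 0.000139, edgeR), opposite in sign to CPSF3. INTS6 was the gene higher with SPHINX31, at 0.29 (SE 0.0657, adjusted p = 0.0162, edgeR), and no longer passed without untreated replicate 1 (0.176), untreated replicate 2 (0.0560) or SPHINX31 replicate 2 (0.0949). Without any 1 of the untreated or combination libraries, fewer of these genes were called with the combination, as were fewer of all tested genes. Without indisulam replicate 2, more of these genes were called with indisulam, while fewer of all tested genes were.

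Among 9975 genes whose average log2 CPM was 3 or more, those whose log2 CPM followed CSTF2 most closely over the 8 libraries were SLC17A3, PON2, MBTPS1, LAS1L and LPCAT3, with Pearson's r between 0.997 and 0.999. Against untreated cells their mean log2 CPM differed with the combination by between -0.56 (MBTPS1) and -1.73 (LPCAT3). For PCF11 they were HAUS3, NAA25, OTULIN, CEP152 and MALT1, with r between 0.989 and 0.993 and differences with the combination of 0.17 (MALT1) to 0.65 (CEP152). These values rank genes over libraries of the same 4 groups and are a description.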
